A study of Homo sapiens with 2 samples.

Results

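The transcripts described here are those of 46 genes that drive or carry out mitosis and build the kinetochore. They were taken by name, as every probe set whose platform annotation gave 1 of these gene symbols alone, and all 46 were found, with 97 probe sets among the 54675 on each array and 46 of 19775 named genes. Expression was measured in CL1-0, an established human lung adenocarcinoma cell line, on Affymetrix arrays with 1 array per group. The control group carried a control vector. The other group carried an FDFT1 vector, which encodes squalene synthase, the enzyme that commits the mevalonate pathway to sterols. Both were stable lines kept in puromycin for 2 weeks and grown at 37 °C in 5% CO2. The promoter that drives the vector, and whether each line is a pool or a clone, are not stated in the labels. With 1 sample per group there is no replicate, so a difference is one between 2 arrays only, given with no p-value.

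Entry into mitosis is driven by CDK1 bound to cyclin A or B, with the Aurora and Polo-like kinases. Chromosomes are compacted by condensin and attach to spindle microtubules through the kinetochore, a protein layer built on centromeric chromatin, and the spindle checkpoint delays anaphase until every kinetochore is attached. Most of these genes are transcribed late in the cell cycle, so dividing cell lines hold their transcripts at readily measured levels, and in a bulk sample fewer cycling cells cannot be told apart from less RNA per cell.

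The arrays were alike in the quality measure given here, the 3′ to 5′ ratio of control probe sets. For GAPDH the 3′ to 5′ ratio of the control probe sets was 0.959 (control) and 1.01 (FDFT1). For ACTB it was 1.16 and 1.15. Signals on the FDFT1 array were lower as a whole, by a median of 0.11 on the log2 scale, and this shift was removed by centring before differences were taken. FDFT1 itself was not analysed here, so its overexpression was not checked. The labels call the cells type II alveolar, yet of 13 alveolar type II markers 7 were measured, and the defining surfactant gene SFTPC was dim at 29.3 and 16.9. LPCAT1, at 934 and 787, and ETV5, at 383 and 281, were bright and made up most of the summed signal of the 7, 1543 and 1263. Over 5 measured of 8 epithelial markers the sum was 73.3 and 65.8. All 5 were dim, with highest single signals of 20.1 (control) and 19.3 (FDFT1). Of 13 blood markers 4 were measured, with a summed signal of 79.7 and 86.4, and of 14 fibroblast and endothelial markers 5 were, with 812 and 902. POSTN alone gave 694 and 760 of the latter. The part of these cells' transcripts in the results was not tested.

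All 46 genes were measured on both arrays. A gene takes the value of its brightest probe set, and 45 of the 46 had signals above the 75th percentile of all signals, 99.4, on both arrays. The exception was INCENP. With the control vector the signals had a median of 1393 (range 80.1 to 6628), and with FDFT1 one of 1347 (79.4 to 6038). The wide range in the plot of signals is a range of probe sets and says nothing on which gene has more transcript, since probe sets differ in response.

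**Figure D1:**
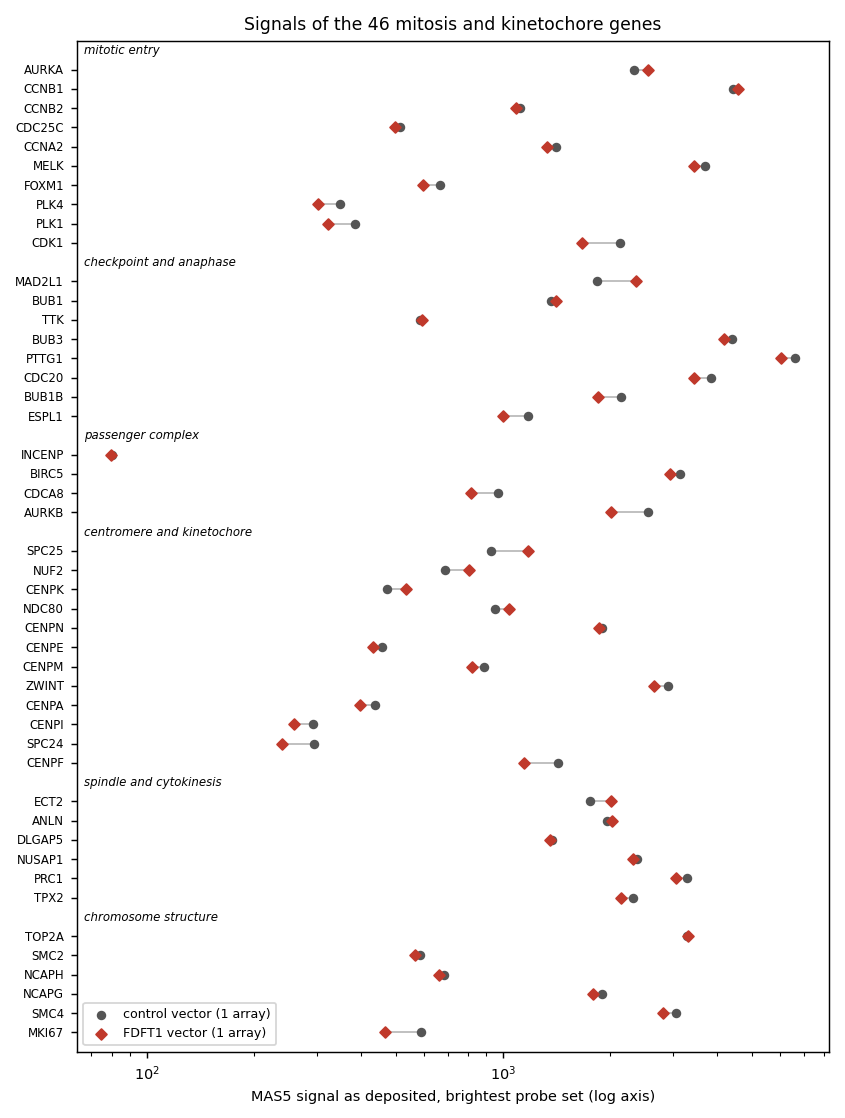
MAS5 signal as deposited (log axis) of the brightest probe set of each of the 46 genes, grouped by role, with grey circles for the control vector array and red diamonds for the FDFT1 vector array. The 2 points of a gene lie close together for most genes, with the widest steps for MAD2L1, SPC25, CDK1 and AURKB.

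No mitotic gene differed by 2-fold, or by 1.5-fold, in either direction. Over all 12968 measured genes, 0.571% were at least 2-fold higher with FDFT1 and 0.578% at least 2-fold lower, and 3.93% and 3.26% passed 1.5-fold. Those genes include dim ones, while 45 of the 46 were bright, at or above the 75th percentile on both arrays. Of the 7691 genes as bright, 3 were at least 2-fold higher and 2 at least 2-fold lower. Within 0.5 of 0 lay 7470 of these, 11607 of all measured genes and all 46 mitotic genes. The 46 differences, each the log2 signal with FDFT1 minus that of the control after centring, ran from -0.25 for CDK1 to 0.47 for MAD2L1. Their median was 0.02, beside -0.0011 for all measured genes and -0.0026 for the 7691 genes that were bright on both arrays. Above 0 lay 26 genes (56.5%), against a background of 49.8%, and below 0 lay 20, against 50.2%. With the brightest probe sets the split was thus near that of all genes. Without centring the split was 12 above (26.1%) and 34 below, while 32.4% of all genes were then above 0, since the shift was left in. Centring takes off 1 value at all signals, and the median of all genes was still 0.02 at log2 signals of 11 and above. Loess scaling, which fits the shift by signal, gave the 46 genes a median of -0.0017. With it 23 were above 0 (50%) and 23 below, beside 48.7% of all genes above 0. Under the 3 scalings that remove the shift (centring, quantile and loess), 22 genes were above 0 in each and 20 were below 0 in each. The sign of the other 4, MELK, BUB3, BIRC5 and NCAPG, depended on the scaling, with centred differences from 0.01 to 0.03. The 12 that stayed above 0 without centring as well, having differences larger than the shift, were CCNB1, AURKA, BUB1, TTK, MAD2L1, CENPK, NDC80, NUF2, SPC25, ECT2, ANLN and TOP2A.

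**Figure D2:**
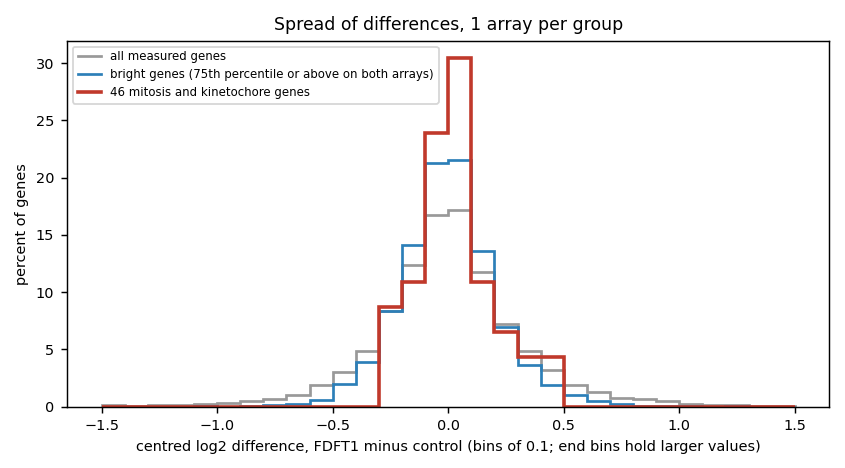
Percent of genes (y axis) by centred log2 difference, FDFT1 minus control, in bins of 0.1 (x axis), for all measured genes in grey, bright genes in blue and the 46 mitosis and kinetochore genes in red. The 46 genes lie between -0.25 and 0.47, inside the span of the other sets.

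A scale for these values comes from genes with several probe sets. The spread between the 2 brightest probe sets of a gene gave a probe-level error of the log2 difference of 0.30 at a mean log2 signal of 5 to 7. It was 0.22 at 7 to 9, 0.16 at 9 to 11 and 0.097 at higher signals. Probe noise and unequal detection of transcripts enter this error, while the spread between cultures does not. Of the 46 genes, 1, 8, 22 and 15 fell in these ranges. Above 0 by more than 2 such errors were AURKA, MAD2L1, NUF2 and SPC25, that is 4 of 46 (8.70%) against 4.08% of all measured genes. Below 0 by as much was AURKB alone (2.17% against 3.22%). This rule was chosen after the values were seen. Only MAD2L1, AURKA and AURKB of these 5 had further measured probe sets, and all 3 had one on the other side of 0. The shares above do not compare genes of like signal. Of all measured genes, 2853 had a mean log2 signal under 5, where none of the 46 lay, and 944 one of 11 or above. Gene differences had a standard deviation of 0.48 under 5, beside an error of 0.48. At 11 and above it was 0.13, beside an error of 0.097, so 2 errors are not equally strict at all signals.

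The 10 genes of mitotic entry had a median of 0.02, with 6 above 0 and 4 below. The signal of AURKA, the Aurora A kinase of spindle poles, went from 2334 on the control array to 2558 on the FDFT1 array, a centred difference of 0.24 (error 0.097). Its next probe set, nearly as bright, gave 2132 and 1923, a difference of -0.04. A dim one, at 10.1 and 19.2, gave 0.71, with its control value under the floor of 12.2. CCNB1, cyclin B1, read 4428 and 4569 on one probe set and 1709 and 1788 on the other. Its differences of 0.15 (error 0.097) and 0.17 (error 0.16) make it the gene of this group whose bright probe sets lay closest. CDK1, the mitotic kinase itself, had the lowest value of all 46 genes, -0.25 (error 0.16), from signals of 2128 and 1667. Its other probe sets lay above 0, at 0.08 (1622 and 1595), 0.07 (1161 and 1133) and 0.28 (14.5 and 16.3). The CDK1 value therefore rests on 1 of 4 probe sets. PLK1, the Polo-like kinase of mitotic entry, has 1 probe set, at 386 and 324, a difference of -0.15 (error 0.22). PLK4, which controls centriole duplication, was at -0.09 (348 and 304) on its brightest probe set and at 0.15 (226 and 233) and 0.43 (19.6 and 24.6) on the others. The other genes lay nearer 0: CCNB2, cyclin B2, was at 0.07 (1120 and 1091), with a dim probe set at 0.76 (10.3 and 19.9), whose control value was under the floor. CDC25C, the phosphatase that activates CDK1, was at 0.06, and CCNA2, cyclin A2, at 0.02. MELK, a kinase gene of proliferating cells, was at 0.01, and FOXM1, the transcription factor of late cell cycle genes, at -0.05.

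The 8 genes of the spindle checkpoint and anaphase onset had a median of -0.0014, with 4 on each side of 0. MAD2L1, whose protein MAD2 holds CDC20 inactive at unattached kinetochores, had the largest difference of the 46. Its brightest probe set read 1843 with the control vector and 2370 with FDFT1, 1.38-fold after centring (0.47, error 0.097). A second bright probe set gave 1529 and 1316, a difference of -0.11 (error 0.16), and a dimmer one 69.5 and 80.2, a difference of 0.31 (error 0.30). The bright probe sets of MAD2L1 thus disagreed in direction. BUB1, a checkpoint kinase of the kinetochore, was at 0.16 (1363 and 1413), with further probe sets at -0.06 (153 and 136) and 0.48 (17.3 and 22.5). BUB3, the partner of BUB1 and BUB1B, had 6 measured probe sets. The brightest, at 4418 and 4178, gave 0.03, 3 others 0.06, 0.17 and 0.46, and the remaining 2 -0.09 and -0.17. TTK, the checkpoint kinase MPS1, was at 0.13 (586 and 595). ESPL1, the protease separase that cuts cohesin, was at -0.13 (1181 and 1000) and at 0.04 on its other probe set, and BUB1B, the checkpoint protein BUBR1, at -0.11 (2145 and 1851). CDC20, the activator of the anaphase-promoting complex, was at -0.05 (3838 and 3451), and PTTG1, securin, at -0.03 (6628 and 6038).

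The chromosomal passenger complex is made of AURKB, INCENP, CDCA8 and BIRC5, and corrects faulty attachments. AURKB, its kinase, read 2552 with the control vector and 2017 with FDFT1, a difference of -0.23 (error 0.097). Its other probe set, at 50.3 and 64.2, lay at 0.46 (error 0.30). CDCA8, borealin, was at -0.15 (970 and 815, error 0.16) on its 1 probe set. BIRC5, survivin, was at 0.01 (3155 and 2955), with its 3 other probe sets at 0.27, 0.0063 and 0.19, all 4 above 0 after centring, though the brightest was below 0 under quantile and loess scaling. INCENP, the scaffold, was at 0.09 at the lowest signal of the 46 genes (80.1 and 79.4, error 0.30). The 4 subunits were thus 2 above 0 and 2 below, and AURKB alone lay more than 1 error from 0 on its brightest probe set.

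The 12 centromere and kinetochore genes had a median of 0.0062, with 6 on each side of 0, and ranged from -0.21 to 0.45. The 4 of them that make up the Ndc80 complex, the rod that grips microtubules, did not lie together. SPC25 went from 927 on the control array to 1176 on the FDFT1 array, 1.37-fold after centring (0.45, error 0.16). NUF2 went from 688 to 805 (0.33, error 0.16) and NDC80 from 951 to 1042 (0.24, error 0.16). SPC24, which pairs with SPC25 in the complex, went from 295 to 241 (-0.19, error 0.22). The first 3 were higher on the FDFT1 array also without centring, and each has 1 probe set in the table, so no further probe set bears on their values. CENPK, of the constitutive centromere network, was at 0.28 (474 and 536, error 0.22), also on 1 probe set.

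Among the other kinetochore genes, CENPF, a large protein of the outer kinetochore, had its brightest probe set at -0.21 (1429 and 1146, error 0.16). Its other probe sets were at 0.17 (280 and 294) and, with the control value under the floor, at 0.45 (10.9 and 16.0). CENPI, of the constitutive network, was at -0.07 (293 and 259) and, on a second probe set, at 0.73 (59.5 and 91.7, error 0.30). CENPN, which reads the CENPA nucleosome, had 3 measured probe sets close together, at 0.08 (1896 and 1861), 0.06 and 0.12. CENPE, a kinesin of the kinetochore, was at 0.03, CENPM, of the constitutive network, at -0.01, ZWINT, which links the checkpoint to the kinetochore, at -0.03, and CENPA, the centromeric histone, at -0.04 (438 and 397). A further probe set that the annotation gives to CENPA and a second gene was left out.

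**Figure D3:**
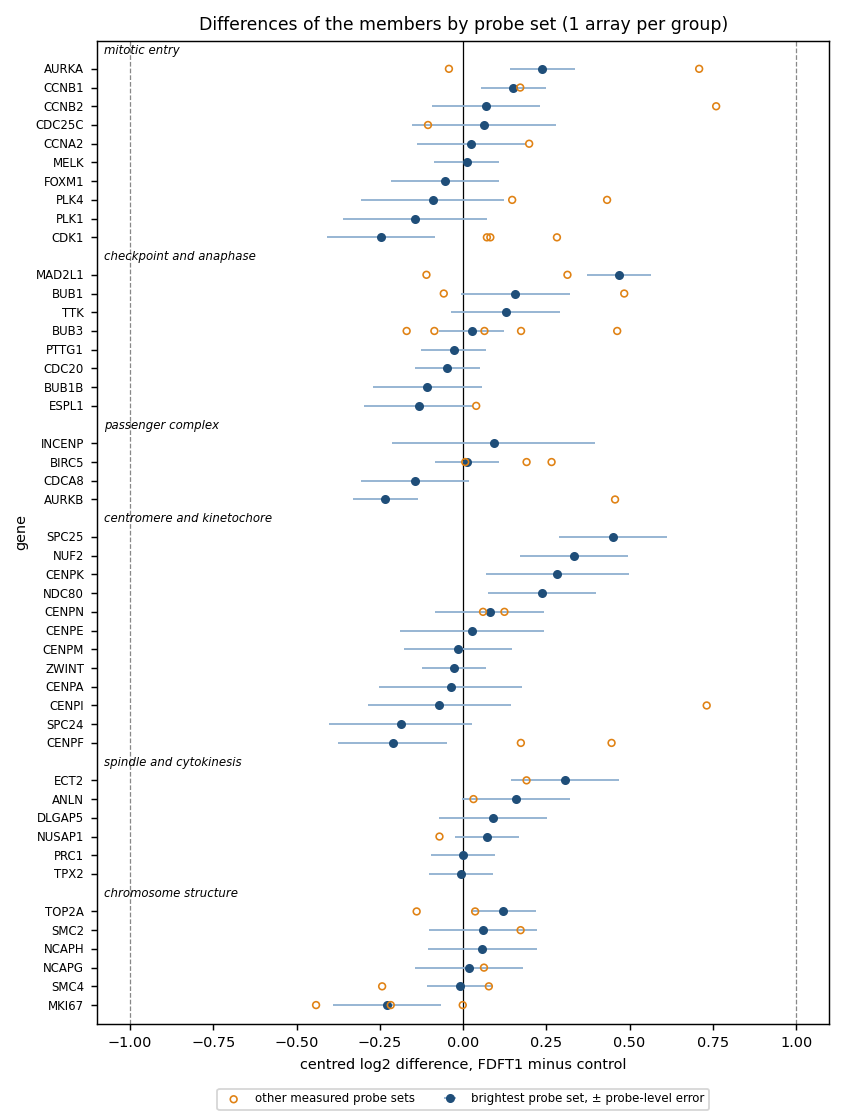
Centred log2 difference, FDFT1 minus control (x axis), of each of the 46 genes (y axis, by role). Blue points are the brightest probe set with its probe-level error as a bar, orange circles the other measured probe sets, and dashed lines mark 2-fold. The orange circles of CDK1, AURKB and CENPF all lie on the other side of 0 from the blue point, and no point reaches 2-fold.

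The genes were also compared by promoter sequence, which played no part in choosing them. Late cell cycle genes are known to be repressed in resting cells, and activated in dividing ones, through the cell cycle genes homology region, CHR, often TTTGAA, which the MuvB complex binds, together with CCAAT boxes bound by NF-Y. The sequences below are shown for the 4 Ndc80 subunits, the complex with the gene values described above, and for CCNB2, which has both motifs in a regular array. Each runs 5′ to 3′ on the gene's strand, from 150 bases before to 30 after the annotated start, from RefSeq on GRCh38.p14. Capitals mark TTTGAA or CCAAT on either strand (TTCAAA and ATTGG when read on the gene's strand). The regions are chr18:2571407-2571586 on the plus strand for NDC80, chr1:163321804-163321983 on the plus strand for NUF2, chr19:11155753-11155932 on the minus strand for SPC24, chr2:168890401-168890580 on the minus strand for SPC25 and chr15:59104996-59105175 on the plus strand for CCNB2.
NDC80: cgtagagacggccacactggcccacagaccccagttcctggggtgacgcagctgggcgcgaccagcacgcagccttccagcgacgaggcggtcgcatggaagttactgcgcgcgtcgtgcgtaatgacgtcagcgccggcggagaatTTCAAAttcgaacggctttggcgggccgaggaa
NUF2: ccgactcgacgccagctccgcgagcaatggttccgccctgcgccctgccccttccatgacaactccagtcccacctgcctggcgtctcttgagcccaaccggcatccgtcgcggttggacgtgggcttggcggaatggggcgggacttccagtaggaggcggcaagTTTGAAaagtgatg
SPC24: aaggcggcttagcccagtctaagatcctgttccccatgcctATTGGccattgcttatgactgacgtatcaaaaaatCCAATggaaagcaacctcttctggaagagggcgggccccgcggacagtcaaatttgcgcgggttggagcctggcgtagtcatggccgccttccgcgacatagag
SPC25: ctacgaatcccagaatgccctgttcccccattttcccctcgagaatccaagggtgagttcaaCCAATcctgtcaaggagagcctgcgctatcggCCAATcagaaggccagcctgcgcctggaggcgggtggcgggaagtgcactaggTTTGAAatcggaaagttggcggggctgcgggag
CCNB2: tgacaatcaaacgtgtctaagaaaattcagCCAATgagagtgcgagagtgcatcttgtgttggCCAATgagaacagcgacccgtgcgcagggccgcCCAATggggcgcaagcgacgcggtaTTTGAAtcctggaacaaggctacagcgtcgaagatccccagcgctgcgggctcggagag

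In these sequences the TTTGAA match lay across or close to the start in NDC80 (first base at -3), SPC25 (-3) and NUF2 (17 downstream), the 3 subunits higher on the FDFT1 array. SPC24, the subunit that was lower, had no match in its whole window of 300 bases and had CCAAT at -109 and -74 in the stretch shown. SPC25 also had CCAAT at -88 and -56. CCNB2 had CCAAT at -120, -87 and -54, and TTTGAA at -29. A match is a description of letters, not a site, and 4 genes are too few to relate it to the array values.

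Across the 39 genes with a promoter window (51 windows of 250 bases before to 50 after a start), 28 (71.8%) had TTTGAA on either strand in at least 1 window. The share was 13.6% of the 10513 measured genes with windows and 18.2% of all 27305 genes in the table. By window, 62.7% of the mitotic windows held it, against 15.2% of all 35116. A match that began within 50 bases of the start was found for 25 of the 39 (64.1%), against 4.23% of measured genes. CCAAT was present for 29 (74.4%), against 43.1% of measured genes, and both motifs for 20 (51.3%), against 5.73%. The windows had a median GC content of 61.3%, against 64.7% in windows of measured genes, and base composition was not adjusted for. In 2 cases a TTTGAA and a CCAAT match overlapped. BUB3, AURKA, BIRC5, CENPM, TTK, TPX2 and FOXM1 had no entry in the promoter table.

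The other gene lists show where this feature was less frequent. Of 92 other mitotic genes with windows, 35 (38.04%) had TTTGAA, and of 23 genes of G1/S transition and DNA replication 1 (4.35%) did, while CCAAT was found for 69.6% of the latter. Split by the motif, the log2 differences were close: the 28 genes with TTTGAA had a median of 0.04 and the 11 without 0.02. Above 0 lay 15 of the 28 and 7 of the 11.

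**Figure D4:**
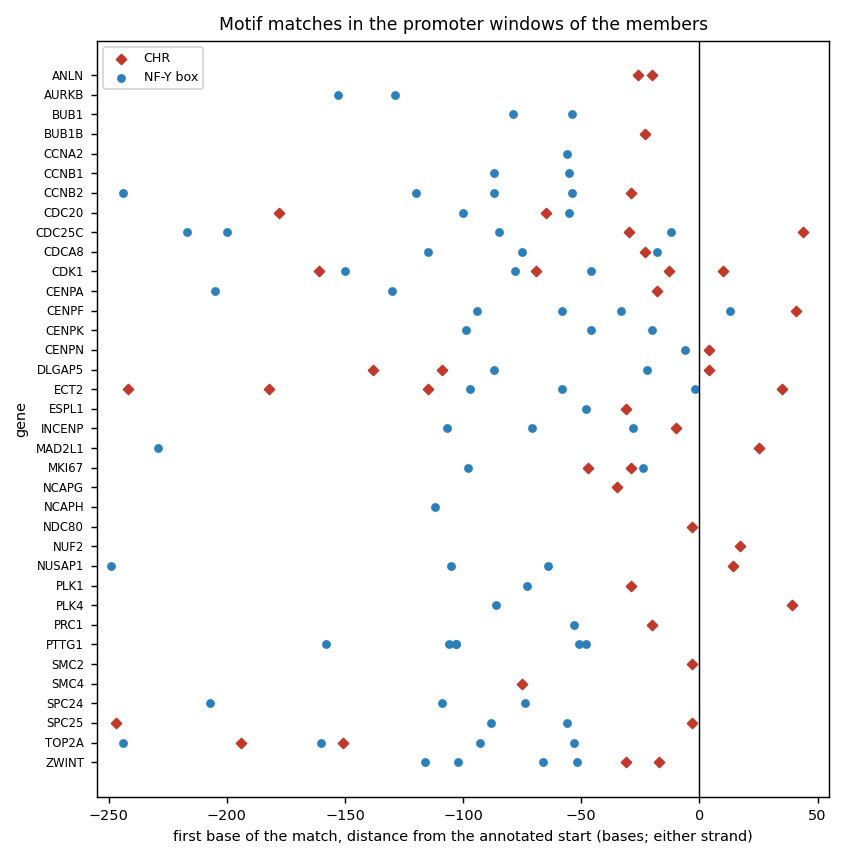
Distance in bases from the annotated start (x axis) of the first base of each CHR (red diamonds) and NF-Y box (blue circles) match, on either strand, for the genes with at least 1 match (y axis), all windows of a gene on 1 line. Most CHR matches lie within 50 bases of the start, 30 of 43. Most NF-Y box matches lie upstream of the start, but so does most of each window, so this does not show a preferred position.

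The 6 spindle and cytokinesis genes had a median of 0.08, with 4 above 0 and 2 below. ECT2, the exchange factor that activates RhoA at the cleavage furrow, went from 1760 on the control array to 2020 on the FDFT1 array (0.30, error 0.16). Its other measured probe set, at 88.5 and 93.8, lay at 0.19, so both were above 0. ANLN, anillin, the scaffold of the contractile ring, was at 0.16 (1959 and 2032) and at 0.03 on a second probe set. TPX2, which activates Aurora A on microtubules, was at -0.0060 (2324 and 2151), and PRC1, which bundles the central spindle, at -0.00039 (3291 and 3057). DLGAP5, a spindle protein, was at 0.09, and NUSAP1, a microtubule protein at chromatin, at 0.07 with a second probe set at -0.07.

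The 6 genes of chromosome structure had a median of 0.04, with 4 above 0 and 2 below. MKI67, the Ki-67 antigen that marks cycling cells, was the lowest of them and the only 1 of the 46 with several probe sets all below 0. Its 4 probe sets read 589 and 467, 412 and 282, 256 and 205, and 250 and 232 on the control and FDFT1 array, in that order. The differences were -0.23, -0.44, -0.22 and -0.0012, with an error of 0.16 for the first and 0.22 for the others. TOP2A, topoisomerase II alpha, was at 0.12 (3291 and 3324, error 0.097) and at 0.04 (2329 and 2219) on its second bright probe set, with a dim one at -0.14. The condensin genes were close to 0. SMC2 was at 0.06 (584 and 566), NCAPH at 0.06 (683 and 661), NCAPG at 0.02 (1905 and 1791) and SMC4 at -0.01 (3061 and 2824). SMC4 had further probe sets at 0.08 and -0.24.

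Several probe sets were measured for 24 of the 46 genes. In 10 of them (41.7%) every probe set lay on the same side of 0, against a background of 40.8% of the 6535 genes with several, so agreement within the mitotic genes was near that of all genes. The 9 with all probe sets above 0 were CCNA2, CCNB1, CCNB2, BIRC5, CENPN, ECT2, ANLN, NCAPG and SMC2, and MKI67 had all below. The second probe set of CCNB2 was measured only through the FDFT1 array and so had to lie above 0, and under quantile or loess scaling the number of agreeing genes was 6 of 24. With probe sets bright on both arrays alone, a rule added after the values were seen, it was 9 of 20 genes (45.0%), against 49.8%. Of the 72 bright probe sets 43 (59.7%) were above 0, against 49.5%, and of the 16 dim ones 13 were, against 50.3%. In 11 of 24 genes (45.8%) the 2 brightest probe sets lay on the same side of 0, against 55.1% of all genes with several. Their differences correlated with a Pearson r of -0.14 and a Spearman rho of -0.31 across these 24 genes, which share the 2 arrays and are not replicates. Over all 6535 genes with several probe sets, r was 0.088 and rho 0.11, so the 2 probe sets hardly agreed there either. The size of the pair differences of the 24 mitotic genes, 0.23 as an error of 1 probe set, was as large as most of the gene differences.

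The other mitotic genes gave a similar picture. Of 102 measured genes of the kinetochore, checkpoint, anaphase-promoting complex, cohesin, condensin, mitotic regulators, the DREAM complex and the spindle, 55 were above 0 and 47 below (median 0.01), and none was 2-fold different. At 1.5-fold, 2 were higher and 1 lower, beside the backgrounds of 3.93% and 3.26% over all measured genes, dim ones included. RBL2, the p130 pocket protein of the DREAM repressor, had the highest value, 0.82 (176 and 290, error 0.22), though its other probe set lay at -0.12. STIL, a centriole assembly protein, was at 0.60 (633 and 889, error 0.16), and CDC14A, a phosphatase, at 0.51 (52.4 and 69.3, error 0.30) with its other probe set at -0.59. The lowest were CENPT, of the constitutive centromere network, at -0.81 (134 and 71.04, error 0.30), MAD1L1, the partner of MAD2, at -0.57 (186 and 116, error 0.22) and CCNF, cyclin F, at -0.38 (336 and 239, error 0.22), where 1 of 2 probe sets was higher. By list, 10 of 20 kinetochore, 4 of 8 checkpoint, 7 of 15 anaphase-promoting complex, 10 of 12 cohesin, 1 of 4 condensin, 9 of 16 regulator, 7 of 11 DREAM and 7 of 16 spindle genes were above 0. Over the 102 genes 53.9% were, and over all measured genes 49.8%. Of the cohesin genes above 0, SMC1A, STAG1, SGO1 and RAD21 lay between 0.0088 and 0.017, below their errors. The 27 genes of G1/S and replication had 14 above 0 and a median of 0.03, from E2F1 at -0.50 (177 and 116, error 0.22) to ORC6 at 0.30 (800 and 916, error 0.16).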

How the data were processed

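Total RNA of 2 samples, 1 per group by the titles, was measured on Affymetrix arrays. The authors made the deposited intensity values with MAS5, per the submitters' processing notes, and they are linear. The scaling target is not stated there. For arrays, their number limits the precision. Calculations used pandas 2.3.3, numpy 2.4.6, statsmodels 0.14.6 (loess) and scipy 1.17.1 in Python 3.11.15. The 62 control probe sets were set aside and signals were centred on the median log2 difference of probe sets at or above the floor on both arrays. Values under the floor (the median signal, 12.2) were set to it, and a probe set was measured if its higher centred signal reached it. A gene took its brightest measured probe set. Only the 41091 probe sets with 1 listed gene were used; all 46 symbols matched the GRCh38.p14 gene table by Entrez identifier.

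Every gene of the set is named. Full signals were given for up to 2 genes each way per role and for genes whose probe sets lay over 0.3 apart on both sides of 0, and other mitotic genes for the 3 highest and 3 lowest. The genes and lists were chosen with earlier results of these data known. Alternatives were no centring, quantile and loess scaling, no floor or a higher one, the mean of probe sets, leaving out _x_at and _s_at probe sets (whose probes can match several transcripts), and other fold thresholds. The steps were tested on simulated data.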

Additional observations from a re-analysis of the deposited data

How the results depend on the processing

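No paired analysis was possible because each group has 1 array, and no replicate could be left out for the same reason. No mitotic gene reached 2-fold in either direction under any alternative. After centring none reached 1.5-fold, and under the other alternatives AURKA alone did, at 0.71 without _x_at and _s_at probe sets, where its value came from a dim probe set with the control value under the floor. The median of the 46 genes was -0.085 as deposited and -0.0068 after quantile normalization, 0.068 when a gene's probe sets were averaged and 0.063 without _x_at and _s_at probe sets, which left 35 genes. As deposited, 12 were above 0 (26.1%, beside 32.4% of all genes) and 34 below. With the mean of probe sets 30 were above (65.2%, beside 49.9% of all genes) and 16 below. Without _x_at and _s_at probe sets 24 were above (68.6%, beside 51.3% of all genes) and 11 below. As deposited values keep the shift of -0.11 between the arrays, which the median of all genes shows too. Genes whose probe sets all had 1 sign numbered 6 of 24 after quantile or loess scaling and 5 of 11 without _x_at and _s_at probe sets. The other mitotic genes had a median of -0.096 as deposited, with 32 above 0, and -0.0060 after quantile normalization; at 1.5-fold, 2 were higher and 1 lower. The sign of single mitotic genes differed from that after centring for 4 after quantile, 3 after loess, 6 with the mean of probe sets and 4 of 35 without _x_at and _s_at probe sets, and for none with another floor. As deposited, 14 were of the other sign, as the shift makes of any centred value between 0 and its size. The cause of the shifts with probe set choice was not tested. A list median counted as moved when it shifted by more than the median probe-level error over the square root of the number of genes, and a gene when it shifted by more than its own error. Differences under the probe-level error lie within the spread between probe sets of a gene. Larger ones are not thereby told from 0, since that error leaves out the spread between cultures.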

Other observations

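The dim probe sets of the mitotic genes leaned one way. Of the 88 measured probe sets, 16 fell short of the 75th percentile of signals on at least 1 array, and 13 of these were above 0, with a median of 0.37. Over all genes 50.3% of 12877 such probe sets were above 0, with a median of 0.0025. In 4 of the 16 a value lay under the floor, so they passed it through 1 array alone and had to differ. These were AURKA, CCNB2 and CENPF, through the FDFT1 array, and TOP2A, through the control array. Among those with both values over the floor, SMC4 at -0.24 and a probe set of BUB3 at -0.17 lay below 0. With TOP2A these were the 3 below 0. The highest of those with both values over the floor was CENPI at 0.73. They also held AURKB at 0.46 and PLK4 at 0.43, ECT2 and BIRC5 at 0.19, and INCENP at 0.09. This pattern was noticed after the values were seen, signals this low may be background, and its cause was not tested.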
